A study of Danio rerio with 20 samples.

Results

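The genes described here were 51 zebrafish genes of mitosis and of the gene families named for it, out of 32105 genes counted in the series. They were chosen by name, as every gene whose symbol began with one of a fixed set of prefixes (cyclins A and B, cdc20, cdc25, cdca, cenp, kif, bub, aurk, plk1, ncap and others) in the study's lists of genes that changed during regeneration in sorted cells or lay near regions of changed accessibility. Of these, 46 came from the expression lists, with 42 listed as increased in sp7+ cells, 3 as decreased in sp7+ cells and 13 as increased in sp7− cells, 12 of which were also listed as increased in sp7+ cells. The other 5 came from the accessibility list alone (kif6, kif13ba, kif19, kif22, kif26ba). By role, 43 members were placed in groups of mitosis. The other 8 were set apart, 7 as kinesin genes of other roles and cenpv on its own. Whether cenpv acts in mitosis was not tested. Because the lists were made from the sorted cells, the changes of the listed genes in those cells are given as a description, whereas the unsorted fins were not used for the lists and are tested. In sp7− cells the 38 members that were not listed for those cells are given apart. These values are a description too, because calls in the same libraries decided which members were left out.

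Entry into mitosis is driven by the cyclin-dependent kinase Cdk1 with its cyclin partners, and the transcripts of many of its regulators accumulate only in cells that are about to divide. Chromosomes are then compacted by condensin, attached to spindle microtubules through kinetochores, watched over by the spindle checkpoint, and separated once the anaphase-promoting complex and separase release the cohesin that joins sister chromatids. An amputated zebrafish fin regrows from a blastema of dividing cells under a wound epidermis. Which tissue of the fin its mitotic transcripts came from was not tested here. In a library of mixed cells more dividing cells and more RNA per dividing cell cannot be told apart.

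Polyadenylated RNA was sequenced in 2 experiments with 2 libraries in each group. In the first, unsorted caudal fins of fosl1a KO and fosl1a WT fish were collected at 0, 1 and 4 days post amputation (dpa). The fin at 0 dpa was uninjured, whereas the study's methods call the injured samples regenerates. Day and tissue therefore cannot be told apart in the fins. The KO fish carried a CRISPR/Cas9 mutation of fosl1a, the gene of the AP-1 transcription factor Fra1, which all their cells share, and wildtype littermates were the comparison. In the second, sp7+ and sp7− cells of Tg(sp7:EGFP) fish were sorted at 4 dpa and at 0 dpa, sp7 being a transcription factor gene whose promoter drives the reporter in osteoblasts, and each library pooled fins of many fish. The regenerate at 4 dpa and the uninjured fin were dissociated by different enzyme treatments, so day, tissue and dissociation cannot be told apart in the sorted cells.

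Libraries held 10194983 to 31507208 counts in the fins and 28906309 to 50312755 counts in the sorted cells, and the 2 libraries of a group correlated over all tested genes with r of 0.985 or more, except those of KO fins at 0 dpa (r = 0.958), of which replicate 1 was also the smallest library. The unit CPM is a count scaled to a library total, so that libraries of different depth can be compared. The KO libraries at 0 dpa differed in markers too, with summed epidermal markers at 118586 and 218005 CPM and summed osteoblast markers at 776 and 3099 CPM. The median log2 of CPM plus 0.5 was 9.59 and 10.5 there over the epidermal markers. Over the osteoblast markers it was 4.57 and 4.95. fosl1a RNA stood at 11.1 and 9.20 CPM in KO fins against 2.71 and 3.96 CPM in wildtype fins at 0 dpa, at 34.2 and 46.1 CPM in KO fins against 119 and 140 CPM in wildtype fins at 1 dpa, and at 2.24 and 2.98 CPM in KO fins against 2.31 and 3.40 CPM in wildtype fins at 4 dpa. It was higher in KO at 0 dpa and lower at 1 dpa (log2 fold changes 1.61 and −1.69, adjusted p of 0.0281 and 0.0122, edgeR). A mutant transcript can still be counted, so its RNA level checks the genotype only in part. Among the sorted cells, all 9 osteoblast markers were called higher in sp7+ than in sp7− cells at 4 dpa and 8 of the 9 at 0 dpa. Epidermal markers were counted in both populations. At 0 dpa the median log2 of CPM plus 0.5 over these 12 markers was 12.1 and 11.7 in sp7+ cells. It was 11.2 and 10.8 in sp7− cells, although the summed epidermal level was lower in sp7+ cells.

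Of the 51 members, 49 passed the filter on low counts in the fins and 50 in the sorted cells. The kinesins kif6 and kif19 did not pass in fins, with CPM from 0 to 0.195 for kif6 and from 0.0786 to 0.535 for kif19, and kif6 did not pass in sorted cells. CPM values are scaled by the trimmed mean of M-values in edgeR and compare 1 gene between libraries, not genes with each other. For comparisons between days, a call means that edgeR put the change beyond 2-fold at an adjusted p under 0.05, taken over every gene tested. For comparisons between genotypes or cell populations the same threshold was set against no difference.

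The first comparison asked when mitosis genes come on in a regenerating fin. They were up within 1 day of amputation in both genotypes. Most members had been listed for a rise at 4 dpa in sp7+ cells, so their choice favoured a share above that of all genes. In wildtype fins 38 of the 49 tested members rose at 1 dpa and 1 fell, against 6.32% of all genes called higher and 8.95% called lower, with a median log2 fold change of 2.11 over the members and −0.06 over all tested genes. In KO fins 40 rose and 0 fell at 1 dpa (4.78% of all genes higher, 5.24% lower), with a median of 2.86 against −0.01 for all tested genes, and the 9 others were not called by edgeR. At 4 dpa 38 rose and 1 fell in wildtype fins (6.69% higher, 4.78% lower, median 2.56) and 41 rose and 0 fell in KO fins (6.93% higher, 8.06% lower, median 2.44). DESeq2 called 34 higher and 0 lower in wildtype fins at 1 dpa, and 37 and 38 higher with 0 lower in KO fins at 1 and 4 dpa. At an unadjusted p under 0.05 the edgeR test held for 45 members of KO fins at 1 dpa and for 43 at 4 dpa, in either direction. Over all 20157 genes it held for 3651 and 4672.

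The summed level of the 43 members with a role in mitosis showed the same step in each library. At 0 dpa it was 126 and 133 CPM in KO fins and 205 and 162 CPM in wildtype fins. At 1 dpa it was 820 and 897 CPM in KO fins and 675 and 654 CPM in wildtype fins, and at 4 dpa 1098 and 832 CPM in KO fins and 935 and 980 CPM in wildtype fins. No library at 1 or 4 dpa overlapped the 0 dpa libraries of its genotype. In wildtype fins summed osteoblast markers were 2742 and 3053 CPM at 0 dpa and 151 and 200 CPM at 1 dpa. They were 24048 and 16924 CPM at 4 dpa. In KO fins they were 776 and 3099, then 200 and 209, then 22810 and 16773 CPM. Summed epidermal markers at 0, 1 and 4 dpa were 141344 and 178032, then 123056 and 134669, then 68944 and 62363 CPM in wildtype fins. In KO fins these were 118586 and 218005, then 119246 and 143186, then 96569 and 84489 CPM. The part of either marker set in the members' values was not tested.

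cdc20 (ENSDARG00000100741), the activator of the anaphase-promoting complex, stood at 1.42 and 1.41 CPM in KO fins and 2.5 and 1.11 CPM in wildtype fins at 0 dpa. It reached 15.3 and 17.0 CPM in KO fins and 12.3 and 13.2 CPM in wildtype fins at 1 dpa, and 16.7 and 15.3 CPM in KO fins and 27.2 and 28.2 CPM in wildtype fins at 4 dpa. In KO fins both regenerating days lay on one level, whereas in wildtype fins the 4 dpa libraries were above those of 1 dpa. Against 0 dpa the log2 fold change was 3.51 ± 0.30 in KO fins and 2.78 ± 0.28 in wildtype fins at 1 dpa (SE, adjusted p of 9.81e-05 and 0.000211, edgeR), and 3.50 ± 0.30 in KO fins and 3.90 ± 0.28 in wildtype fins at 4 dpa (adjusted p of 6.35e-05 and 3.35e-05, edgeR).

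ccnb1 (ENSDARG00000051923) encodes cyclin B1, the main partner of Cdk1 at entry into mitosis. Its level was 1.18 and 1.41 CPM in KO fins and 3.66 and 2.0 CPM in wildtype fins at 0 dpa, 27.0 and 34.0 CPM in KO fins and 26.3 and 24.8 CPM in wildtype fins at 1 dpa, and 45.3 and 38.6 CPM in KO fins and 42.8 and 49.1 CPM in wildtype fins at 4 dpa. It rose by 4.53 ± 0.30 (log2, SE) in KO fins and 3.15 ± 0.26 in wildtype fins at 1 dpa, and by 4.99 ± 0.30 in KO fins and 4.00 ± 0.27 in wildtype fins at 4 dpa (all called by edgeR). The KO libraries were below both wildtype libraries at 0 dpa and overlapped them at 4 dpa.

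cenpe (ENSDARG00000063385) encodes a kinesin of the kinetochore that moves chromosomes to the spindle equator. It differed most between the genotypes at 4 dpa, although KO and wildtype libraries did not overlap on any day. It stood at 3.78 and 3.74 CPM in KO fins and 5.89 and 6.01 CPM in wildtype fins at 0 dpa, and at 39.7 and 44.2 CPM in KO fins and 31.8 and 32.6 CPM in wildtype fins at 1 dpa. At 4 dpa it was 147 and 84.7 CPM in KO fins and 38.2 and 38.6 CPM in wildtype fins. The log2 fold change against 0 dpa was 3.48 ± 0.25 in KO fins and 2.43 ± 0.24 in wildtype fins at 1 dpa, and 4.94 ± 0.27 in KO fins and 2.69 ± 0.24 in wildtype fins at 4 dpa (SE, all called by edgeR).

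bub1bb (ENSDARG00000074927), which encodes the checkpoint protein BubR1, had 0.552 and 0.364 CPM in KO fins and 1.13 and 1.07 CPM in wildtype fins at 0 dpa. It had 7.24 and 6.18 CPM in KO fins and 4.82 and 3.87 CPM in wildtype fins at 1 dpa, and 13.1 and 8.70 CPM in KO fins and 10.5 and 10.6 CPM in wildtype fins at 4 dpa. In both genotypes the 4 dpa libraries lay above those of 1 dpa, and these above those of 0 dpa. Against 0 dpa it rose by 3.92 ± 0.33 at 1 dpa and 4.62 ± 0.32 at 4 dpa (log2, SE) in KO fins, and by 1.98 ± 0.27 and 3.25 ± 0.26 in wildtype fins.

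**Figure D1:**
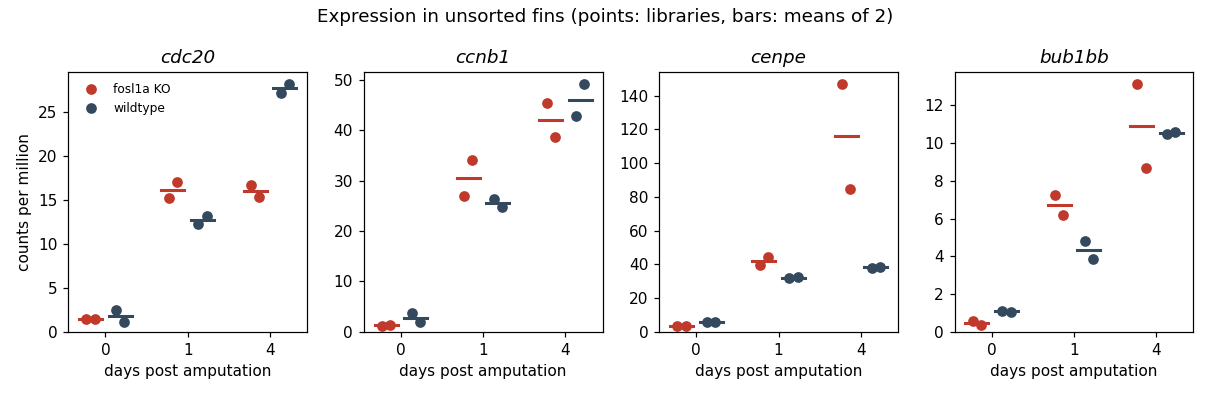
Expression of cdc20, ccnb1, cenpe and bub1bb in CPM (vertical axis, linear from 0) in unsorted fins at 0, 1 and 4 days post amputation (horizontal axis), with fosl1a KO in red and wildtype in dark blue. Points are libraries and bars are means of 2 libraries. All 4 genes were low at 0 dpa and higher at 1 and 4 dpa in every library, and at 4 dpa cenpe stood at 147 and 84.7 CPM in KO fins against 38.2 and 38.6 CPM in wildtype fins, while cdc20 stood at 16.7 and 15.3 CPM in KO fins against 27.2 and 28.2 CPM in wildtype fins.

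Most role groups moved as a whole. Of 5 genes of cyclins and Cdk1 control, 3 rose in KO fins and 3 in wildtype fins at 1 dpa, and 3 in KO fins and 4 in wildtype fins at 4 dpa. ccna2 (cyclin A2) and plk1 (polo-like kinase 1, which helps to activate Cdk1 and mature the spindle poles) rose in all 4 comparisons, with log2 fold changes of 4.91 in KO fins and 3.30 in wildtype fins for plk1 at 1 dpa. cdc25b, the phosphatase that activates Cdk1, was called in none of the 4 (log2 fold changes from 0.22 to 1.02, edgeR), and its level at 0 dpa was already 11.2 and 13.5 CPM in KO fins and 13.2 and 14.0 CPM in wildtype fins. ccnb3 (cyclin B3) was called in 1 of the 4, wildtype fins at 4 dpa, with 8.48 and 10.4 CPM at 4 dpa after 1.96 and 1.88 CPM at 0 dpa.

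All 4 genes of anaphase and cohesion rose in both genotypes on both days. Besides cdc20 these were espl1 (separase), cdca5 (sororin, which protects cohesin) and sgol1 (shugoshin, which guards cohesin at centromeres), and the group medians at 1 dpa were 3.05 in KO fins and 2.19 in wildtype fins. sgol1 had 12.9 and 19.9 CPM in KO fins and 13.0 and 19.4 CPM in wildtype fins at 1 dpa, after 1.81 and 4.60 CPM in KO fins and 4.25 and 3.03 CPM in wildtype fins at 0 dpa, so the genotypes overlapped on both days. The 4 spindle checkpoint genes, bub1, bub1bb, mad2l1 and ttk, also rose in every comparison, with medians of 3.56 in KO fins and 2.26 in wildtype fins at 1 dpa and 3.84 and 3.15 at 4 dpa. So did the 7 kinetochore genes, which are cenpe and cenpf, the Ndc80 complex genes ndc80, nuf2 and spc24 whose products bind microtubules, and ska1 and ska3 which strengthen that grip. All 3 genes of the chromosomal passenger complex, the kinase gene aurkb and its partners birc5a (survivin) and cdca8 (borealin), rose as well. birc5a had 0.315 and 0.638 CPM in KO fins and 0.952 and 0.256 CPM in wildtype fins at 0 dpa, against 6.93 and 8.37 CPM in KO fins and 5.73 and 5.39 CPM in wildtype fins at 1 dpa.

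The 15 genes of the spindle and of cytokinesis were less uniform. At 1 dpa 14 rose in KO fins and 11 in wildtype fins, and at 4 dpa all 15 rose in KO fins and 11 in wildtype fins. Among the highest fold changes were those of kif11, the motor that pushes spindle poles apart (log2 4.24 in KO fins and 3.17 in wildtype fins at 1 dpa), aurka, the spindle pole kinase (4.35 in KO fins and 4.37 in wildtype fins at 4 dpa), and tpx2, its activator (4.10 in KO fins and 3.49 in wildtype fins at 4 dpa). The 4 that were not called in wildtype fins on either day were kif4, kif15, kif22 and prc1a. kif4, a chromosome-bound kinesin, was flat in wildtype fins, at 25.7 and 20.7 CPM at 0 dpa, 23.7 and 23.0 CPM at 1 dpa and 21.9 and 22.2 CPM at 4 dpa. In KO fins kif4 had 8.51 and 10.02 CPM at 0 dpa, 25.8 and 28.2 CPM at 1 dpa and 54.8 and 35.2 CPM at 4 dpa, and it rose by 1.54 and 2.27 (log2) at 1 and 4 dpa. Among the 5 condensin genes, 4 rose in KO fins and 3 in wildtype fins at 1 dpa, and 3 in KO fins and 4 in wildtype fins at 4 dpa. ncapd2 had 48.2 and 46.8 CPM in KO fins and 40.3 and 32.4 CPM in wildtype fins at 1 dpa, after 8.04 and 6.29 CPM in KO fins and 9.70 and 7.12 CPM in wildtype fins at 0 dpa, and rose in all 4 comparisons. ncapg2 was the condensin gene called in none of these (log2 0.71 to 1.64), and its KO libraries at 0 dpa stood apart at 10.1 and 2.41 CPM.

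**Figure D2:**
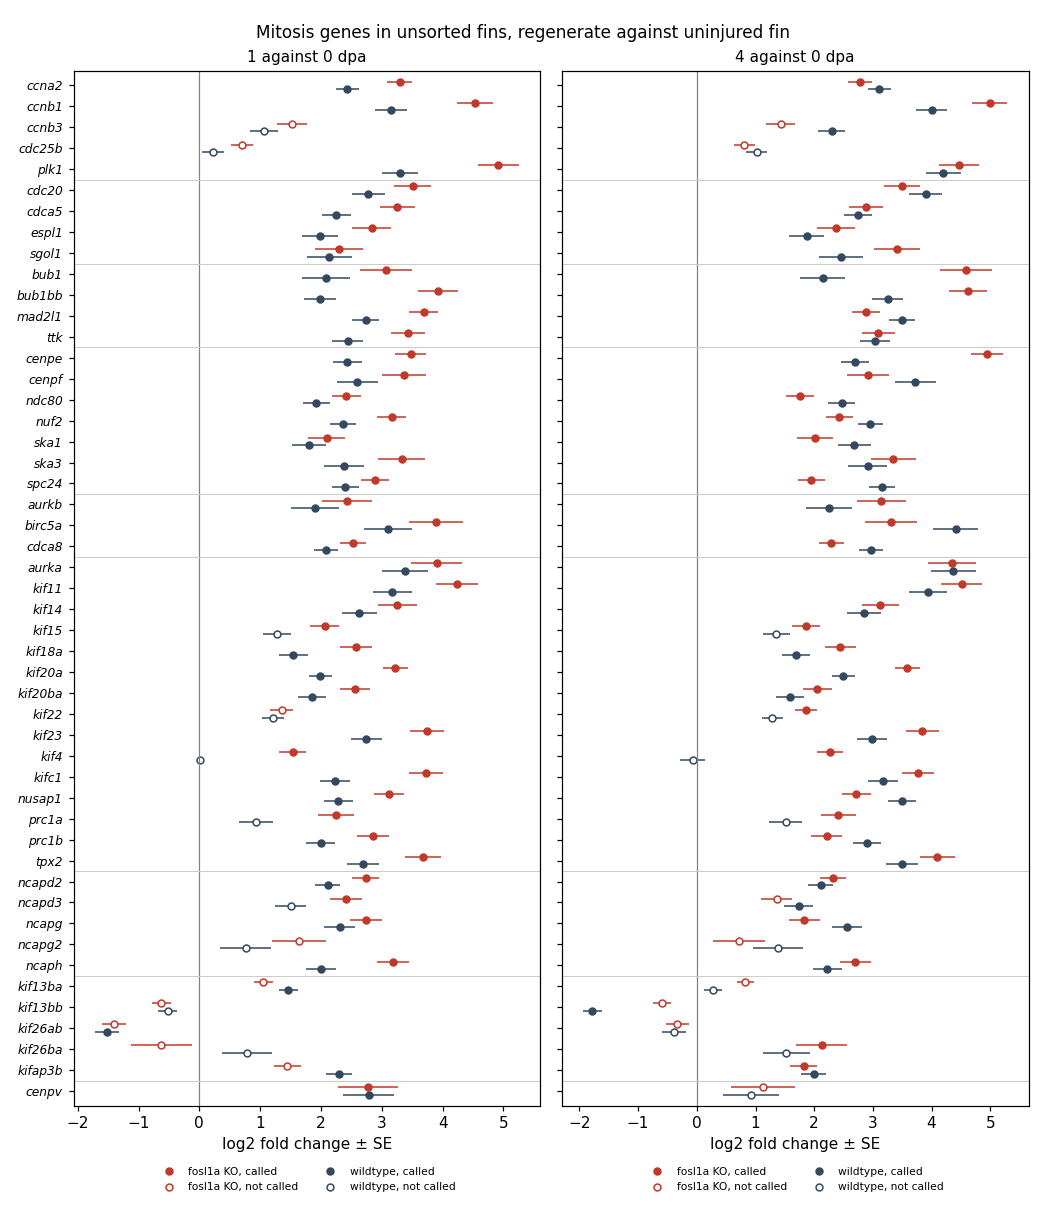
Log2 fold changes with standard errors (horizontal axis) of the 49 members tested in unsorted fins, at 1 dpa against 0 dpa (left) and 4 dpa against 0 dpa (right), with genes ordered by role group between grey lines and fosl1a KO in red above wildtype in dark blue. Filled points were called by edgeR against a 2-fold change and open points were not, and a point with no bar had no standard error computed. Most filled points lie between 1.5 and 5, kif4 lies near 0 in wildtype fins at 0.01 and −0.07, and the kinesins of other roles at the foot scatter on both sides of 0.

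Between 1 and 4 dpa most members rose further in wildtype fins but not in KO fins, and hardly any passed the test against a 2-fold change. In wildtype fins 0 members were called in either direction by edgeR (5.84% of all genes higher, 3.13% lower) and 0 by DESeq2. In edgeR 5 members had an unadjusted p under 0.05, against 3107 of 20157 over all genes. The median log2 fold change was 0.58 against 0.03 over all tested genes, and 42 of 49 members were higher at 4 dpa. Tested against no change instead of a 2-fold change, 20 were higher and 3 lower, where 17.6% of all genes were higher and 14.4% lower. The largest wildtype fold changes were those of birc5a (log2 1.30) and bub1bb (1.27), and the lowest those of cenpv (−1.86) and kif13bb (−1.26). In KO fins the only call was kif26ba (5.98% of all genes higher, 3.90% lower). The median in KO fins was −0.13 against −0.11 over all tested genes, and the test against no change called 8 higher and 9 lower, against 20.8% and 24.7% of all genes. cenpe had a log2 fold change of 1.47 ± 0.22 there (SE, adjusted p = 0.0679, edgeR).

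The second comparison asked whether loss of fosl1a altered the mitosis genes. In uninjured fins they tended to be lower in KO, 42 of 49 having a negative log2 fold change with a median of −0.34 against −0.02 over all tested genes, but only kif4 was called (log2 −1.32 ± 0.22, SE, adjusted p = 0.0281, edgeR, with 0.0446% of all genes called lower and 0.308% higher). bub1bb had the same log2 fold change of −1.32 with a larger error (± 0.38, adjusted p = 0.301, edgeR), and the highest values were those of spc24 (0.18) and kif26ab (0.14). The KO libraries lay below both wildtype libraries for 19 members and above for 1, against 14.4% and 14.5% of all genes. With any 1 library of the 4 left out, KO replicate 1 among them, the median lay between −0.62 and −0.16. Of the wildtype libraries at 0 dpa, replicate 1 was the higher for 38 of the 43 mitosis members, and without it the median was −0.16 and 0 members were called. Without wildtype replicate 2 the median was −0.62 with 2 calls, and without KO replicate 2 it was −0.51 with 4 calls. The calls over all genes moved with these libraries too, being 71 with all of them, 29 without wildtype replicate 1, 82 without wildtype replicate 2 and 1500 without KO replicate 2.

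At 1 dpa the sign was the opposite, with 42 of 49 members higher in KO fins and a median log2 fold change of 0.39 against 0.02 over all tested genes. Both KO libraries lay above both wildtype libraries for 35 members, against 28.6% of all genes, and below for 6, against 24.9%. No member passed the threshold in edgeR (0 higher and 0 lower, against 0.724% and 0.506% of all genes). In edgeR 13 members had an unadjusted p under 0.05, against 2942 of 20157 over all genes. DESeq2 called 0 higher and 2 lower, against 326 and 325 of 17517 genes. The largest differences were those of cenpf (log2 0.83), nusap1 (0.72), a microtubule-bundling protein gene, and kifc1 (0.71), and the lowest were kif26ba (−1.75, adjusted p = 0.0985, edgeR) and kifap3b (−0.77, adjusted p = 0.101, edgeR). The median lay between 0.27 and 0.40 with any 1 library of the 4 left out.

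The change from 0 to 1 dpa was larger in KO than in wildtype fins for 44 of 49 members, by a median of 0.80 (log2) against 0.04 over all tested genes. In the test of this difference itself edgeR called 0 members (0.129% of all genes larger in KO, 0.377% smaller). In edgeR 23 members had an unadjusted p under 0.05, against 1902 of 20157 over all genes. DESeq2 called 2 members larger in KO, where 92 of 16457 genes were larger and 198 smaller. The members with the largest differences were bub1bb (1.94 ± 0.44, SE, adjusted p = 0.111, edgeR), plk1 (1.62, adjusted p = 0.199, edgeR) and kif4 (1.53, adjusted p = 0.0591, edgeR). Without wildtype replicate 1 at 0 dpa the median difference was 0.36. With any 1 library left out the median difference lay between 0.36 and 0.99.

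At 4 dpa the members parted in both directions. Here 5 were higher and 14 lower in KO fins, where 12.7% of all genes were called higher and 16.8% lower, so the members' share of calls was near that of all genes in the upward direction and above it in the downward one. The median log2 fold change was −0.13 against −0.08 over all tested genes. The 5 higher were cenpe (1.59 ± 0.22, SE, adjusted p = 0.00295, edgeR), bub1 (1.48), kif13bb (1.07), kif4 (1.03) and kif13ba (0.62). The 14 lower were birc5a (−1.44 ± 0.32, SE, adjusted p = 0.00891, edgeR), mad2l1 (−1.24), prc1b (−1.09), spc24 (−1.02), ccnb3 (−1.0), nusap1 (−0.89), ncapd3 (−0.88), nuf2 (−0.88), cdca8 (−0.84), ndc80 (−0.82), cdca5 (−0.79), cdc20 (−0.79), ccna2 (−0.79) and plk1 (−0.74). Each of the 4 libraries carried part of these calls, whose number was 2 without KO replicate 1, 11 without KO replicate 2, 9 without wildtype replicate 1 and 4 without wildtype replicate 2. Over all genes the calls were also fewer, being 5933 with every library, 126 without KO replicate 1, 4109 without KO replicate 2, 2399 without wildtype replicate 1 and 1243 without wildtype replicate 2. cdc20 was not called without any 1 of them (adjusted p from 0.117 to 0.163, edgeR). Summed epidermal markers were 96569 and 84489 CPM in KO fins against 68944 and 62363 CPM in wildtype fins at 4 dpa (1 of 12 called higher and 2 lower), osteoblast markers 22810 and 16773 CPM against 24048 and 16924 CPM (1 of 9 higher and 2 lower) and leukocyte markers 153 and 120 CPM against 98.9 and 99.8 CPM (1 of 8 tested higher and 2 lower). Medians of log2 CPM, with the constant used above, did not all follow these sums. The epidermal median was 8.71 and 8.84 in KO fins against 9.34 and 9.15 in wildtype fins at 4 dpa. The leukocyte median was 1.27 and 1.26 in KO fins against 2.41 and 2.24 in wildtype fins. Both were lower in KO fins, although both sums were higher there. Osteoblast medians overlapped, at 5.48 and 5.17 in KO fins against 5.42 and 5.58 in wildtype fins. The part of these markers in the members' values was not tested.

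Members of one role group were called in opposite directions in some cases. Transcript length and RNA integrity were not measured here, and their part in these differences was not tested. In the spindle checkpoint bub1, a kinase that recruits other checkpoint proteins to kinetochores, stood at 82.7 and 51.0 CPM in KO fins against 27.9 and 20.0 CPM in wildtype fins. mad2l1, whose product holds Cdc20 inactive until chromosomes are attached, stood at 7.74 and 7.31 CPM in KO fins against 17.9 and 17.7 CPM in wildtype fins. The groups did not overlap for either gene, and they pointed opposite ways.

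At the kinetochore cenpe was higher in KO while the 3 Ndc80 complex members were all lower, spc24 at 6.49 and 5.96 CPM in KO fins against 12.7 and 12.6 CPM in wildtype fins. Of the passenger complex, birc5a had 4.48 and 5.68 CPM in KO fins against 13.3 and 14.2 CPM in wildtype fins and cdca8 12.4 and 12.6 CPM against 23.1 and 21.8 CPM. Their kinase partner aurkb was not called, at 54.9 and 43.8 CPM in KO fins against 47.4 and 40.8 CPM in wildtype fins. Of the paired genes for the midzone protein Prc1, prc1b had 6.76 and 8.01 CPM in KO fins against 15.5 and 16.0 CPM in wildtype fins. The other copy, prc1a, was not called (log2 0.21). The study kept only uniquely aligned reads, so reads that fit both copies equally were not counted. In 22 members both KO libraries lay below both wildtype libraries and in 9 above, against 38.6% and 32.9% of all genes.

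**Figure D3:**
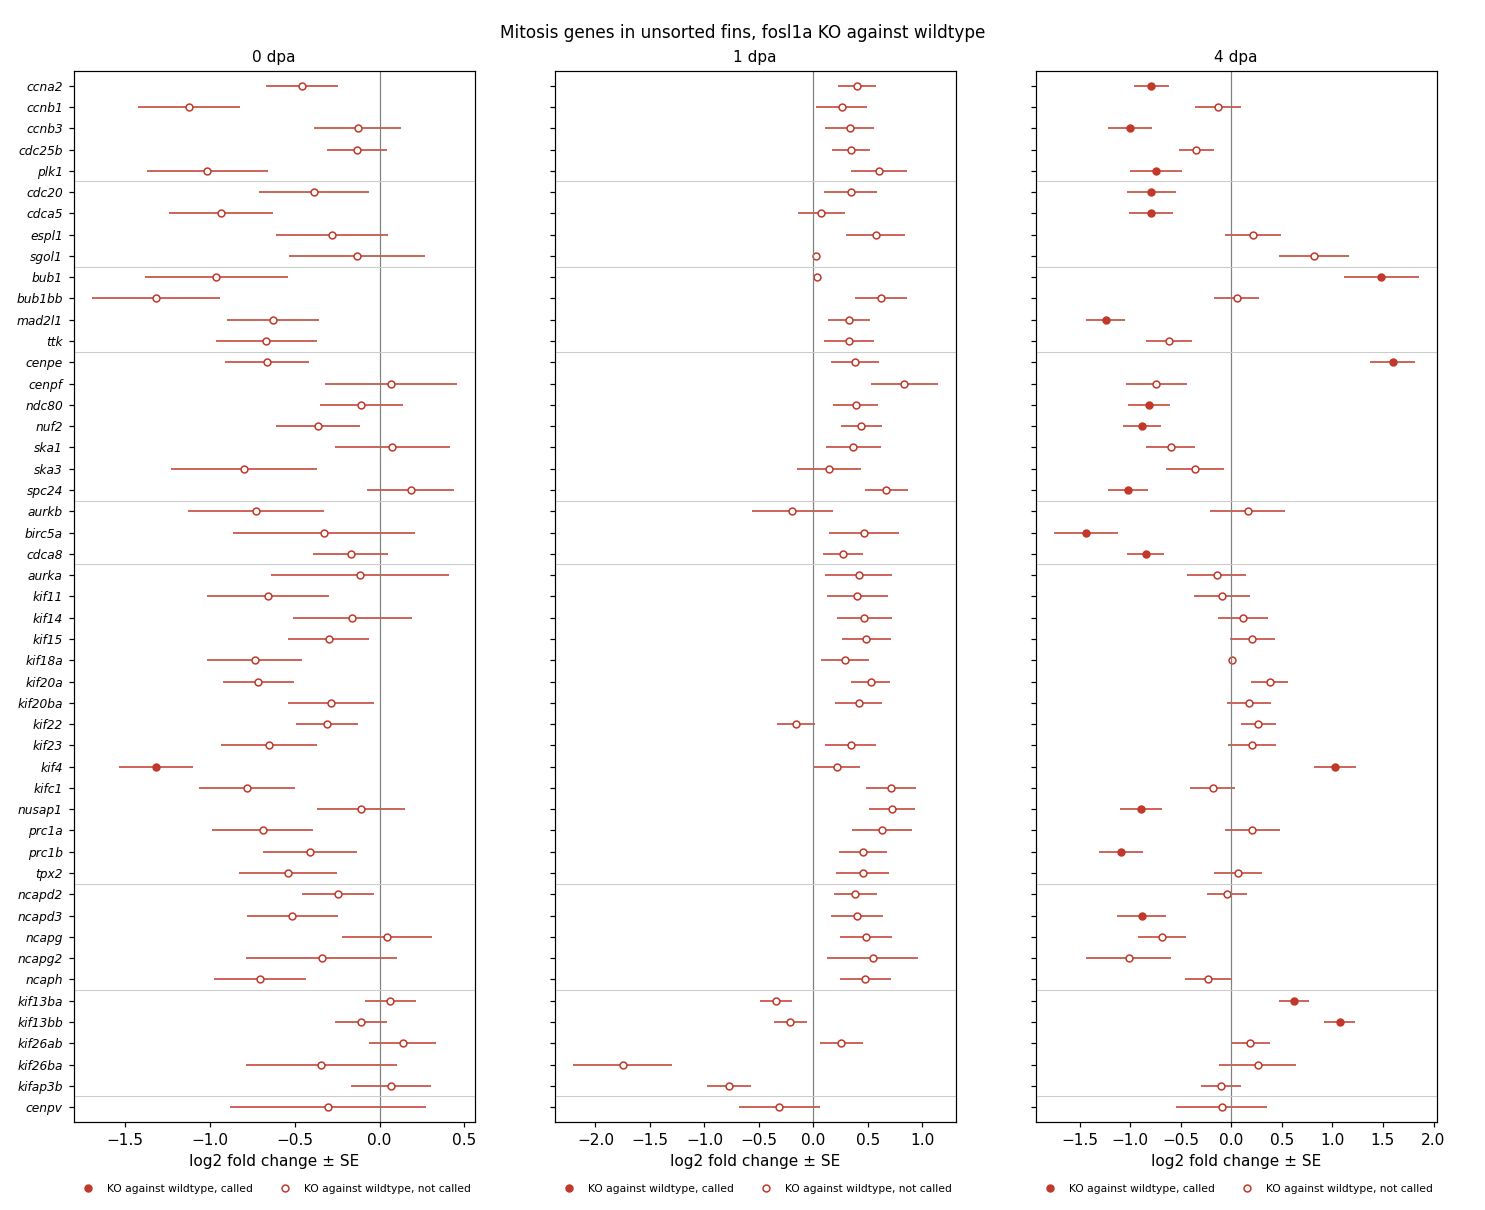
Log2 fold changes with standard errors (horizontal axes, each panel on its own scale) of fosl1a KO against wildtype fins at 0, 1 and 4 dpa for the 49 members tested, ordered by role group between grey lines. Filled points were called by edgeR against no difference and open points were not, and a point with no bar had no standard error computed. Points lie mostly left of 0 at 0 dpa (42 of 49) and right of 0 at 1 dpa (42 of 49), while at 4 dpa the 5 called higher reach 1.59 for cenpe and the 14 called lower reach −1.44 for birc5a.

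The test of the difference in change from 0 to 4 dpa called 6 members, 5 larger in KO (bub1, kif4, cenpe, kif13bb and kif20a, a motor gene of cytokinesis) and 1 smaller (spc24), where 8.32% of all genes were called larger and 10.1% smaller, or 18.5% in either direction, so the members were not called more often than all genes. The number was 14 without KO replicate 2 and 11 without wildtype replicate 1 at 0 dpa, 3 without wildtype replicate 2 at 0 dpa, and 2 without KO replicate 1 or without wildtype replicate 2 at 4 dpa. The calls over all genes were 3720 with every library, and 7499, 3662, 400, 80 and 79 in these same fits.

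Ratios of 2 members within a library need no scaling between libraries and are shown for a pair of members called in opposite directions. The pairs were chosen after the values were seen, so they are a description. The ratio of cenpe to cdc20 CPM was 8.80 and 5.53 in KO fins at 4 dpa against 1.40 and 1.37 in wildtype fins at 4 dpa, and between 2.36 and 5.42 in the other 8 fin libraries. The ratio of bub1 to mad2l1 was 10.7 and 6.98 in KO fins at 4 dpa against 1.55 and 1.13 in wildtype fins at 4 dpa, and between 1.29 and 4.25 in the others. In the 8 libraries of sorted cells the first ratio ran from 15.3 to 64.2 and the second from 14 to 63, above every fin library. The 63 came from sp7+ cells at 0 dpa, with 63 counts of bub1 and 1 count of mad2l1. In the same group cdc20 had 5 and 10 counts. Transcript length and RNA integrity were not measured here, so their part in these ratios, between genotypes or between sorted cells and fins, was not tested.

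**Figure D4:**
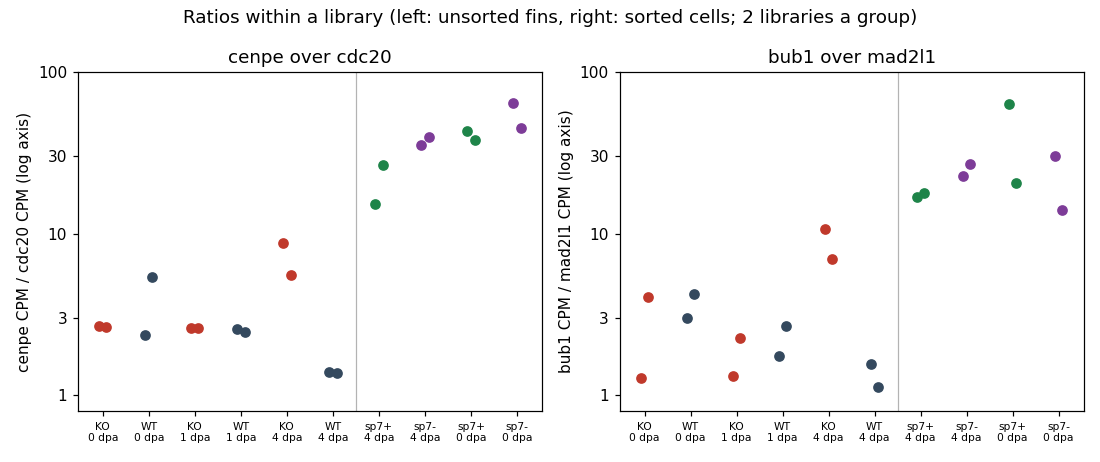
Ratios of CPM within each library (vertical axes, log scale) of cenpe over cdc20 (left) and bub1 over mad2l1 (right), with unsorted fins left and sorted cells right of the grey line in each panel and 2 libraries for each group. KO fins at 4 dpa lie at 8.80 and 5.53 and at 10.7 and 6.98, above wildtype fins at 4 dpa at 1.40 and 1.37 and at 1.55 and 1.13, and all sorted-cell libraries lie at 14 or more.

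In sorted cells part of the mitosis genes were also called higher at 4 dpa in sp7− cells, on calls whose number varied with the library left out. The values there are given for members that the study had not listed for sp7− cells, of which 37 passed the filter. Leaving out the listed ones used calls from these same libraries. Most of the rest were listed for sp7+ cells, which were sorted from the same pools of fins. The counts are therefore a description and not an independent test. Of these 37, 14 rose at 4 dpa and 0 fell in edgeR, against 8.85% of all genes called higher and 8.26% lower. In edgeR 21 of the 37 had an unadjusted p under 0.05, against 4847 of 18641 over all genes. The median log2 fold change was 1.52 against −0.02 over all tested genes. DESeq2 called 0 higher and 0 lower of the 37, with 8 at an unadjusted p under 0.05. The study made its lists with DESeq2 on these same libraries, so this 0 was fixed by the choice of members. Against no change edgeR called 29 higher and 3 lower, where 22.2% of all genes were higher and 23.3% lower. With any 1 library of the 4 left out the median log2 fold change of the 37 lay between 1.17 and 1.90, and the number called both fell and rose. Both 4 dpa libraries lay above both 0 dpa libraries for 33 of the 37, a pattern held by 38.6% of all genes.

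The highest of these fold changes were those of cdca5 (log2 2.41 ± 0.50, SE, adjusted p = 0.0179, edgeR) and ccnb3 (2.34 ± 0.50), and the lowest were cenpv (−1.53) and kif13bb (−1.32), neither of the last pair called. cdca5 had 2.02 and 1.86 CPM at 4 dpa against 0.252 and 0.459 CPM at 0 dpa in sp7− cells. The 13 members that were listed for sp7− cells, among them prc1b (log2 3.20), bub1bb (2.91) and plk1 (2.74), had a median of 2.47 there, a value that the lists themselves fixed.

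In sp7+ cells 46 of 50 tested members were called higher and 3 lower at 4 dpa, with 14.4% of all genes called higher and 13.1% lower and a median log2 fold change of 3.29, values that the lists themselves fixed. cdc20 had 6.17 and 5.57 CPM at 4 dpa against 0.222 and 0.399 CPM at 0 dpa in sp7+ cells, and 3.39 and 3.18 CPM against 0.409 and 0.749 CPM in sp7− cells. ccnb1 had 11.1 and 16.2 CPM at 4 dpa against 0.133 and 0.797 CPM at 0 dpa in sp7+ cells, and 9.29 and 10.7 CPM against 1.13 and 2.29 CPM in sp7− cells. Neither population overlapped between the days for either gene.

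bub1bb had 4 counts over both sp7+ libraries at 0 dpa and 425 counts at 4 dpa, a ratio of 48.4 after scaling to library totals multiplied by their trimmed-mean factors (95% exact interval 18.8 to 179, counting error only). birc5a had 0 counts at 0 dpa and 104 at 4 dpa in sp7+ cells, so it was at least 8.02-fold higher at 4 dpa against a floor of 3 counts per library on the same scale. cenpe was measured far above such floors, with 94.7 and 148 CPM at 4 dpa against 9.54 and 15.0 CPM at 0 dpa in sp7+ cells and 120 and 126 CPM against 26.3 and 33.9 CPM in sp7− cells.

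**Figure D5:**
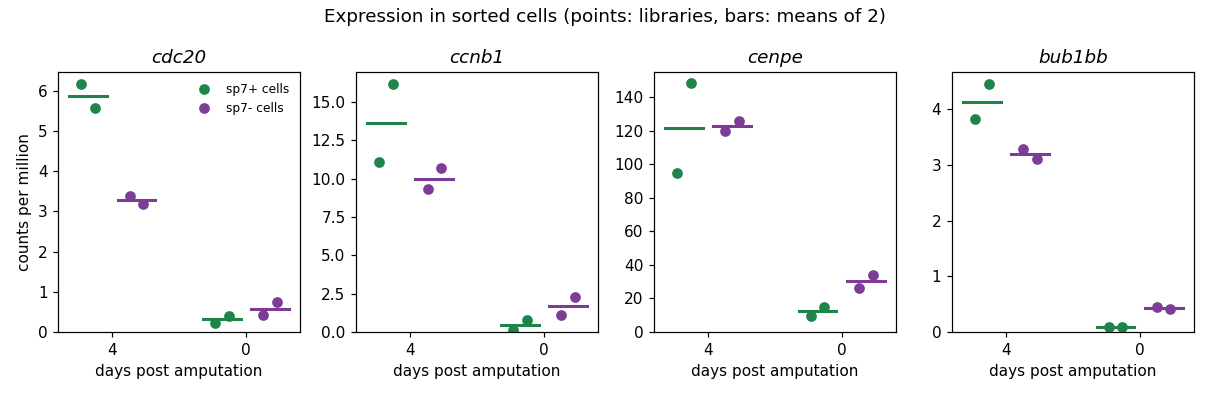
Expression of cdc20, ccnb1, cenpe and bub1bb in CPM (vertical axis, linear from 0) in sp7+ (green) and sp7− (purple) cells at 4 and 0 days post amputation (horizontal axis). Points are libraries and bars are means of 2 libraries. All 4 genes were higher at 4 dpa than at 0 dpa in both populations, and at 0 dpa the sp7+ libraries lie below the sp7− libraries, as for cenpe at 9.54 and 15.0 CPM against 26.3 and 33.9 CPM.

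The members differed between the populations mainly before injury, a pattern that their choice from the lists favoured. At 0 dpa 32 of 50 members were lower in sp7+ than in sp7− cells and 2 were higher (21.6% of all genes lower, 20.4% higher), with a median log2 difference of −1.47 against −0.07 over all tested genes. The summed level of the 43 mitosis members was 56.9 and 91.3 CPM in sp7+ cells against 162 and 229 CPM in sp7− cells at 0 dpa. At 4 dpa it was 575 and 702 CPM in sp7+ cells against 610 and 605 CPM in sp7− cells. At that day 0 of these 43 were called by edgeR, with 1 at an unadjusted p under 0.05, against 5885 of 18641 over all genes. Over all 50 members 2 were higher and 1 lower in sp7+ cells in both edgeR and DESeq2 (11.9% of all genes higher, 9.51% lower in edgeR). These counts are a description, because the lists were made from changes in these libraries. At 0 dpa replicate 2 was the higher library for 37 of the 43 in sp7+ cells and for 41 of the 43 in sp7− cells. Epidermal markers moved with the day in both populations, 10 of 12 being called lower at 4 dpa in each, with sums of 25278 and 27956 CPM at 4 dpa against 115547 and 96898 CPM at 0 dpa in sp7+ cells and 45776 and 57205 CPM against 145261 and 151532 CPM in sp7− cells. The part of this change in the members' values was not tested.

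The 8 members outside the mitosis groups varied in both directions. kif26ab, an unconventional kinesin gene, had 60.6 and 53.7 CPM at 4 dpa against 379 and 320 CPM at 0 dpa in sp7+ cells, and in wildtype fins it was the 1 member that fell at 1 dpa (37.4 and 30.5 CPM against 87.1 and 108 CPM at 0 dpa, log2 −1.52 ± 0.20, SE, adjusted p = 0.0222, edgeR). In KO fins it had 36.3 and 44.7 CPM at 1 dpa against 117 and 96.9 CPM at 0 dpa, which missed the threshold (adjusted p = 0.0767, edgeR). At 4 dpa it was not called in either genotype, at 89.0 and 80.6 CPM in KO fins and 69.1 and 79.6 CPM in wildtype fins.

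kif13bb and kif13ba encode transport kinesins of 1 family. kif13bb was the 1 member that fell in wildtype fins at 4 dpa, with 24.9 and 24.0 CPM against 79.5 and 88.0 CPM at 0 dpa, and in KO fins it had 52.0 and 50.6 CPM at 4 dpa against 72.0 and 83.1 CPM at 0 dpa and was not called. kif13ba rose in wildtype fins at 1 dpa (log2 1.46) and was not called in KO fins (1.05) or at 4 dpa. Both were higher in KO than in wildtype fins at 4 dpa, kif13ba at 44.8 and 45.0 CPM in KO fins against 29.8 and 28.7 CPM in wildtype fins.

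kifap3b, which encodes an adaptor of the kinesin that serves cilia and transport, rose in wildtype fins on both days (log2 2.29 and 1.99) and in KO fins at 4 dpa (1.82). kif26ba, a relative of kif26ab, had 13.6 and 7.93 CPM at 4 dpa against 1.84 and 1.36 CPM at 1 dpa in KO fins (log2 2.75 ± 0.45, SE, adjusted p = 0.00799, edgeR), and 8.94 and 9.01 CPM against 7.88 and 2.76 CPM in wildtype fins, where it was not called. Against 0 dpa kif26ba rose in KO fins at 4 dpa (log2 2.13 ± 0.43, SE, adjusted p = 0.0261, edgeR). cenpv, named for a centromere protein of human cells, rose at 1 dpa in both genotypes (log2 2.77 in KO fins and 2.78 in wildtype fins) and was not called at 4 dpa. Its level was low throughout, at most 3.09 CPM in the fins and 3.64 CPM in sorted cells. Of the 5 members listed for accessibility alone, kif22, kif13ba and kif26ba were called higher at 4 dpa in sp7+ cells (log2 1.77, 1.65 and 1.89, edgeR), kif19 was not called (0.95) and kif6 was not tested.

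Genes beyond the members showed where these counts stand among related ones. Of 60 further mitosis genes tested in fins, 44 rose in KO fins and 32 in wildtype fins at 1 dpa, 38 in KO fins and 40 in wildtype fins at 4 dpa, and edgeR called 0 lower in any of these. Over all genes 4.78% were higher in KO fins and 6.32% in wildtype fins at 1 dpa, and 6.93% in KO fins and 6.69% in wildtype fins at 4 dpa. At 4 dpa 7 of the 60 were higher and 16 lower in KO than in wildtype fins, where 12.7% of all genes were higher and 16.8% lower. Of 50 tested genes that share the members' name prefixes but were not found on the study's lists as used here, 17 rose in KO fins and 15 in wildtype fins at 1 dpa, 12 in KO fins and 20 in wildtype fins at 4 dpa. That set took in genes alike only in prefix, such as skap1, and left out genes that the study had called. Its share is therefore not that of mitosis genes as a class. It also shared genes such as bub3 and ccnb2 with the 60 further mitosis genes. Of 19 tested S phase genes, which act in DNA replication, 6 rose in KO fins and 2 in wildtype fins at 1 dpa and 1 in KO fins and 7 in wildtype fins at 4 dpa. Between genotypes 0 S phase genes were higher and 8 lower in KO fins at 4 dpa in edgeR, 11 had an unadjusted p under 0.05, and the 19 had a median log2 fold change of −0.49.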

How the data were processed

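The authors sequenced polyadenylated RNA with an unstranded kit, aligned reads to GRCz10 with STAR 2.5.2a and deposited raw counts per Ensembl gene from featureCounts 1.5.0, in which a read overlapping several genes counts for each. Library totals ranged from 10194983 to 50312755. Members were matched by gene ID. edgeR 4.0.16 in R 4.3.3 fitted each experiment over all its libraries (filterByExpr, trimmed mean of M-values, quasi-likelihood), testing days against a 2-fold change and genotypes and populations against no difference, with Benjamini-Hochberg adjustment over all genes tested (20157 in fins, 18641 in sorted cells). The tests were checked on counts simulated from the fitted means and spread, with 200 genes changed 8-fold. Of these, 195 to 200 were recovered, with 0 to 13 false calls. Smaller changes were not simulated. Alternatives were DESeq2 1.42.0, its size factors, no filter, fits of the compared groups alone, a replicate block and leaving out each library. The 2 libraries of a group are separate samples, but nothing states separate fish for the fins, so p-values measure the spread between these libraries. Libraries of sp7+ and sp7− cells with one number and day came, per the study's methods, from one pool of fins, and their deviations from group means correlated at 0.369 at 0 dpa and 0.178 at 4 dpa. The text names cdc20, ccnb1, cenpe and bub1bb, the highest and divergent members of each role group, and the 2 largest and smallest changes of each comparison. It also names members outside the mitosis groups and those called between genotypes. Members and lists were chosen with earlier results of these data known, from a table that was shortened for accessible regions, so members may be missing. Promoters were not analysed here.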

Additional observations from a re-analysis of the deposited data

Results flagged for a closer look

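The change from 0 to 4 dpa differed between fosl1a KO and wildtype fins for 6 members in edgeR's quasi-likelihood test of that difference. It was larger in KO by 2.44 (log2) for bub1 (adjusted p = 0.0189), 2.34 for kif4 (adjusted p = 0.00625), 2.26 for cenpe (adjusted p = 0.00793), 1.18 for kif13bb (adjusted p = 0.0121) and 1.09 for kif20a, and it was −1.21 for spc24 (adjusted p = 0.0294). Over all genes 8.32% were larger in KO and 10.1% smaller, so 6 of 49 members (12.2%) was not above the share of all genes called (18.5%). Leaving out KO replicate 1 at 4 dpa left 2 members called, and wildtype replicate 2 at 4 dpa left 2. No cause was tested.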

How the results depend on the processing

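Each setting was changed alone. The counts of called members stayed within 1.5 times of the reported ones under every setting for both days against 0 dpa in either genotype (32 to 48 called) and for sp7+ cells (45 to 49). Of 708 alternative fold changes of named genes 33 lost their call and 17 gained one. None that was called turned in direction, but 11 uncalled ones did, among them cdc20 in KO against wildtype fins at 0 dpa (0.36 without wildtype replicate 1, −0.39 with it), its difference in change from 0 to 1 dpa (−0.10 without that library, 0.73 with it) and KO fins at 4 against 1 dpa (up to 0.08, and −0.01 as reported). The number called in sp7− cells was 0 in DESeq2, 32 against no change and 1 to 17 with 1 library left out, against 14 as reported. For 4 against 1 dpa it was 23 against no change and 0 to 1 with 1 library left out in wildtype fins, and in KO fins 17 against no change, 2 with DESeq2 size factors, 2 with no filter, 2 with only the groups compared and 0 to 2 with 1 library left out. Between genotypes it was 0 with only the groups compared and 0 to 4 with 1 library left out at 0 dpa, 2 in DESeq2, 1 with no filter and 1 with only the groups compared at 1 dpa, and 2 to 11 with 1 library left out at 4 dpa. For the difference in change from 0 to 1 dpa it was 2 in DESeq2, 2 with no filter and 0 to 2 with 1 library left out, and from 0 to 4 dpa 2 with only the groups compared and 2 to 14 with 1 library left out, where the median was −0.13 without wildtype replicate 1 at 0 dpa and 0.27 with it. A fit without 1 library leaves a group with 1 library, assumed to vary like the others. The 0 of DESeq2 in sp7− cells was fixed in advance, because the study's lists came from DESeq2 on the same libraries. The causes were not tested.

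Replicate numbers were not shown to pair the fin libraries (r of deviations from group means −0.22 to 0.39). With a replicate block the difference in change from 0 to 4 dpa called 7 members instead of 6, bub1bb being added (adjusted p = 0.0426, edgeR), and every other count kept its value. A replicate block for each day's pools, added after the data were seen, called 41 members instead of 34 between sp7+ and sp7− cells at 0 dpa and 4 instead of 3 at 4 dpa, and the block changed no other call of a named gene.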
